A study of Homo sapiens with 6 samples.

Results

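A set of 10 genes of the insulin-like growth factor (IGF) and IGF-like (IGFL) axis was followed in SCC90 cells after knockdown of ΔNp63. The genes were IGFL1, IGFLR1, IGFBP2, IGFBP3, IGFBP4, IGFBP6, IGFBP7, IGF1R, IGF2R and INSR, taken by name as 10 of the 40488 genes in the expression table. SCC90 is an established, HPV16-positive cell line of an oropharyngeal squamous cell carcinoma (OSCC). RNA was sequenced 72 h after transfection with a siRNA against ΔNp63 (siDNp63, 3 libraries) or with a scrambled siRNA (siCTRL, 3 libraries). According to the sample labels the dose was 10 nM, which is not the dose given in the methods of the study. Both groups received lipid transfection and grew in medium with fetal calf serum, a source of IGFs and insulin. One cell line and 1 knockdown reagent were used, and whether the replicates were grown or transfected separately is not stated. The p-values therefore rest on library-to-library spread, part or all of which may be technical.

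ΔNp63 is the p53-family transcription factor of basal squamous epithelium, made from an internal promoter of TP63. IGF1 and IGF2 are secreted growth factors that act through the tyrosine kinase receptor IGF1R and, with insulin, through its close relative INSR, which feed the PI3K-AKT and MAPK pathways. IGF2R takes up IGF2 for degradation in lysosomes, and the IGF-binding proteins (IGFBPs) hold IGFs outside the cell and thereby limit or prolong their action. The IGFL proteins are small secreted proteins of skin and other epithelia that resemble IGFs only distantly, and IGFLR1 is a membrane protein shaped like a tumor necrosis factor receptor that binds IGFL1.

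Between 35716277 and 52598831 estimated counts were assigned to genes in a library. TP63 itself stood at 15136 ± 576 normalized counts in siDNp63 and 43408 ± 976 in siCTRL (SD, n = 3 each), with a difference of -1.52 on the log2 scale (SE 0.04, edgeR adjusted p = 7.59e-07). All TP63 isoforms are summed here. A normalized count is the estimated count of a gene scaled by the TMM factor to the mean library size. The second principal component set siDNp63 replicate 1 apart, at 39.1 against -25.6 and -24.8 in the other siDNp63 libraries and 2.64 to 5.63 in siCTRL. All 8 epithelial markers passed the filter on low counts, and their summed level was 6622 to 6971 TPM (a transcript level scaled for length and depth) in siDNp63 and 6095 to 6289 TPM in siCTRL. The largest entry of this sum was KRT6A, with means of 3694 TPM in siDNp63 and 3071 TPM in siCTRL. At an edgeR adjusted p under 0.05, 5 of the 8 were higher and 1, the target TP63, was lower. Of 7 fibroblast markers, 3 passed the filter and summed TPM of the list was 5.82 to 9.11 in siDNp63 and 8.72 to 10.8 in siCTRL, with COL1A1 and PDGFRA detected in every library, DCN lower (log2 fold change -1.32, edgeR adjusted p = 0.0284) and PDGFRB at 0. Of 6 leukocyte markers, 4 passed, and the sum was 11.7 to 12.6 TPM in siDNp63 and 14.3 to 16.0 TPM in siCTRL, with CD14 lower (log2 fold change -1.26, edgeR adjusted p = 0.0329).

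Across all genes the knockdown moved a large share of the transcriptome, and the 10 genes have to be read against that. Of 17257 genes tested, 5803 had an edgeR adjusted p under 0.05, or 33.6%, with 18.4% higher and 15.2% lower in siDNp63. The 10 genes gave 9 tested, of which 5 were higher (IGFL1, IGFBP3, IGFBP7, IGF2R and INSR), 1 was lower (IGF1R) and 3 did not pass (IGFLR1, IGFBP2 and IGFBP4). IGFBP6 was too low to test. The 6 genes called also passed when any 1 library was left out, siDNp63 replicate 1 included. An absolute log2 fold change over 1 together with an adjusted p under 0.05 was reached by 4.06% of all genes tested, and by IGFL1 and IGFBP7 here. For 7 of the 9 genes all siDNp63 libraries lay on one side of all siCTRL libraries, as they did for 49.4% of all genes tested. The median log2 fold change was 0.16 over the 9 genes and -0.02 over all genes tested. These 9 passed a filter on low counts, so the figures do not describe all 10.

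**Figure D1:**
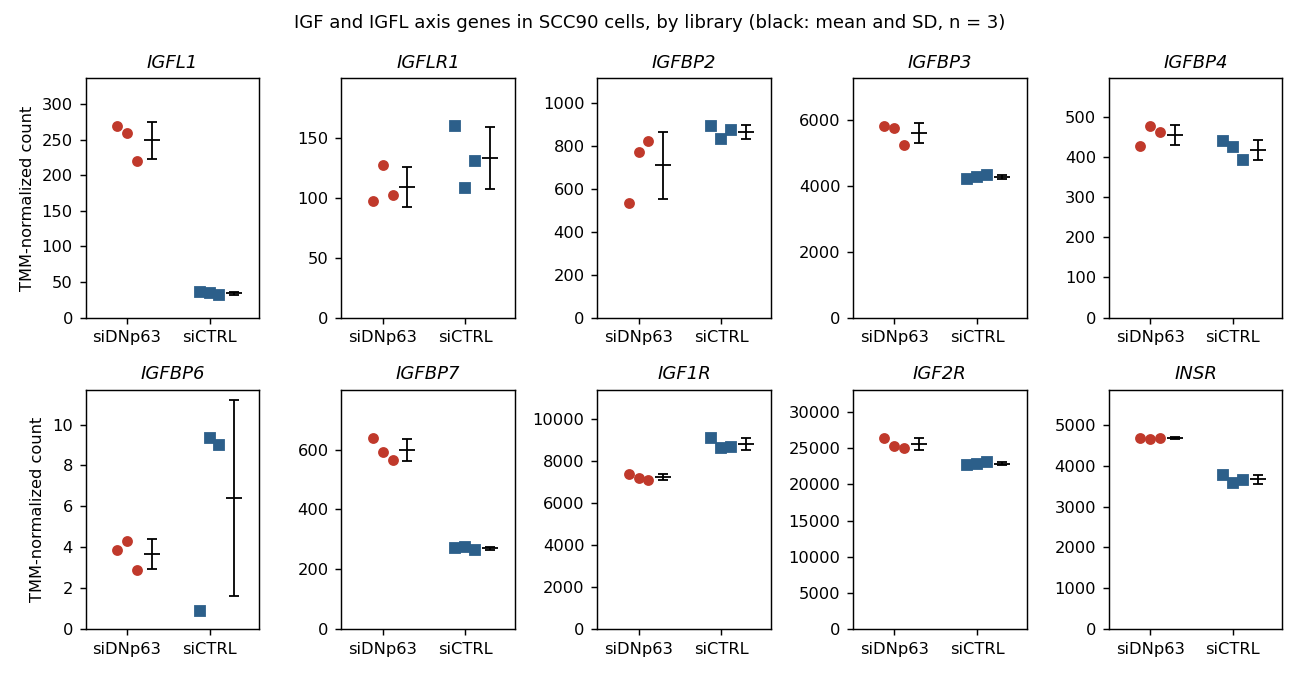
TMM-normalized counts (y axis, a scale of its own for each gene, from 0) of the 10 genes in each library, with siDNp63 as red circles left of siCTRL as blue squares and the mean and SD (n = 3) in black. IGFL1 lay between 219 and 269 in siDNp63 and between 31.5 and 35.6 in siCTRL, while the groups overlapped for IGFLR1, IGFBP4 and IGFBP6.

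The levels of the 10 genes spanned a wide range. On the TPM scale, which divides by transcript length, IGF2R was the most abundant, at 100.6 ± 1.95 TPM in siDNp63 and 92.1 ± 1.06 in siCTRL (SD, n = 3 each). In siDNp63 the means of the others were 89.9 TPM for IGFBP3, 57.7 for IGF1R, 37.8 for IGFBP2, 23.6 for IGFBP7, 21.4 for INSR, 14.2 for IGFL1, 7.48 for IGFBP4, 4.96 for IGFLR1 and 0.303 for IGFBP6. In siCTRL they were 72.2 TPM for IGFBP3, 66.6 for IGF1R, 48.6 for IGFBP2, 17.4 for INSR, 11.2 for IGFBP7, 7.26 for IGFBP4, 5.97 for IGFLR1, 2.03 for IGFL1 and 0.530 for IGFBP6. Neighbours in these orders overlapped in their ranges for IGFBP7 and INSR in siDNp63 and for IGFBP4 and IGFLR1 in siCTRL, and for no other pair. IGFL1 stood above IGFBP4 and IGFLR1 in siDNp63 and below both in siCTRL.

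IGFL1, the ligand of the group, changed most of the 10 genes. It lies in the IGFL cluster of chromosome 19 (GRCh38, GENCODE v44, chr19:46229742-46231243, plus strand). IGFL3 (chr19:46120067-46124688, minus strand), IGFL2 (chr19:46143106-46161298, plus strand) and IGFL4 (chr19:46039182-46077118, minus strand) lie in the same cluster. The RefSeq promoters (GRCh38.p14, 250 bases before to 50 after the start) of IGFL1, chr19:46229492-46229791 on the plus strand, and of IGFL3, chr19:46124639-46124938 on the minus strand, are shown because both transcripts had more reads in siDNp63. Both are given 5′ to 3′ in the direction of the gene, with CpG dinucleotides in capitals.
IGFL1: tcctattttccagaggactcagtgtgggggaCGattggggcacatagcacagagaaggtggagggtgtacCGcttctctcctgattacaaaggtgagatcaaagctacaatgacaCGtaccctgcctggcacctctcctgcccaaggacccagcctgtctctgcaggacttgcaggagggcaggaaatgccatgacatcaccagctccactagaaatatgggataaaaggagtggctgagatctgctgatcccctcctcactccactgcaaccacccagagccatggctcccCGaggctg
IGFL3: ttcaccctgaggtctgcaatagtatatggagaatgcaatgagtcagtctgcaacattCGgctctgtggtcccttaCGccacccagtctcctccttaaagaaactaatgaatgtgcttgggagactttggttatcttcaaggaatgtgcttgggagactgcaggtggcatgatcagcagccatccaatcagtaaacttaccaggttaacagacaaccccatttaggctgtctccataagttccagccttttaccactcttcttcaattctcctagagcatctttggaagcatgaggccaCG
The IGFL1 promoter held 4 CpGs and that of IGFL3 held 3, at or under the lower quartile of 4 over 35116 RefSeq promoters of the same length (median 14). In an end-to-end alignment that allowed gaps, the pair had 163 identical bases, or 54.3% of 300. Pairs of IGFL promoter windows ran from 48.0% (IGFL1 with 1 window of IGFL4) to 76.3% (IGFL2 with the other). Alignment with gaps raises the identity of unrelated sequences too. The p53-family half-site (10 bases, either strand), found in 6.63% of all promoters, was in neither window. The AP-1 motif TGANTCA (its reverse complement is the same), held by 7.71% of promoters, occurred once, 212 bases before the IGFL3 start. Such matches describe letters only.

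IGFL1 had 269, 259 and 219 normalized counts in siDNp63, against 35.6, 34.3 and 31.5 in siCTRL. Every siDNp63 library stood far above every siCTRL library, and libraries of a group lay close together. It was higher by 2.87 on the log2 scale (SE 0.14, 95% interval 2.54 to 3.21, edgeR adjusted p = 8.14e-06), or 7.33-fold, and only 0.110% of genes tested had a larger absolute log2 fold change. IGFL1 ranked 13 from the top among the 17257 genes ordered by log2 fold change. Its estimated counts were 210, 303 and 230 in siDNp63 and 41, 33 and 28 in siCTRL, whole numbers in all 6 libraries (within 0.01). An opposite-strand long non-coding RNA not analysed here covers 95 of its 779 exonic bases. In bulk RNA, more cells expressing a gene and more RNA per cell cannot be told apart. The call held in each of 17 alternatives, where the log2 fold change lay between 2.32 and 2.96.

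The other IGFL genes did not follow as a block. IGFL3 had 18, 28 and 22 reads in siDNp63, against 2, 1 and 0 in siCTRL. The groups lay apart, at 68 reads in siDNp63 and 3 in siCTRL, for a depth-scaled ratio of 22.7 (exact 95% counting interval 7.44 to 113, which covers counting error only). IGFL3 passed the filter on low counts only through siDNp63, so its place among the genes tested already needed a difference and its test adds no support. Its fitted log2 fold change was 4.35, but 5.09 without siCTRL replicate 1, 3.89 without siCTRL replicate 3 and 1.26 on log2(TPM + 1). IGFL4 had 402, 314 and 347 normalized counts in siDNp63, against 431, 426 and 427 in siCTRL, a log2 fold change of -0.28 that did not pass the test (edgeR adjusted p = 0.0753). IGFL2 was too low to test, at 13, 20.0 and 5 estimated counts in siDNp63 and 11, 7.09 and 6 in siCTRL. Of the cluster, then, IGFL1 and IGFL3 had more reads in every siDNp63 library, while IGFL4 lay lower in each without passing and became a call in 5 of 17 alternatives, among them the fit without siDNp63 replicate 1 (log2 fold change -0.37, edgeR adjusted p = 0.00909).

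IGFLR1, the receptor for IGFL1, did not pass the test. It lies on the same chromosome outside the cluster (chr19:35738801-35742453, minus strand). It had 97.3, 128 and 102 normalized counts in siDNp63, against 159.6, 108 and 131 in siCTRL. The groups overlapped, with siCTRL replicate 1 the highest library. The log2 fold change was -0.28 (SE 0.19, 95% interval -0.71 to 0.15, edgeR adjusted p = 0.284), so changes of either sign up to the size of these limits remain possible. Another protein-coding gene annotated on the same strand shares 1202 of its 2203 exonic bases, so reads could be split between them. That gene was given 0, 2.73 and 5.68 estimated counts in siDNp63 and 7.11, 19.9 and 3.21 in siCTRL. The counts of IGFLR1 were whole in 1 of 6 libraries. The estimated transcript length of IGFLR1 relative to its mean ran from 0.787 to 1.41 over the libraries, the widest range of the 10 genes.

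**Figure D2:**
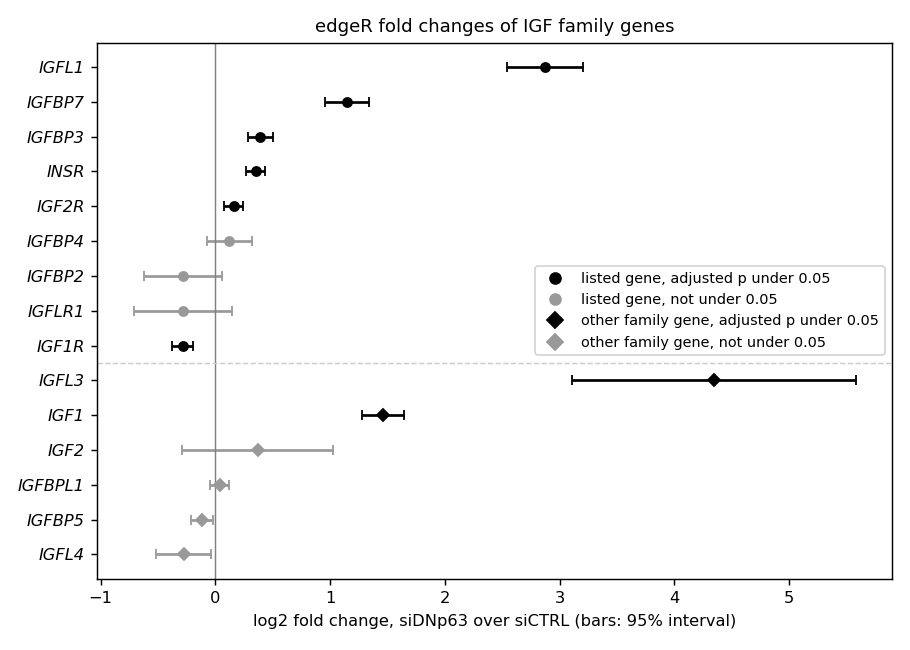
edgeR log2 fold changes, siDNp63 over siCTRL (x axis), with 95% intervals, of the 9 tested genes (circles) and of 6 other IGF family genes (diamonds), black where the adjusted p was under 0.05 and grey otherwise. IGFL1 (2.87) and IGFBP7 (1.15) lie farthest right of the circles, and IGF1R (-0.29) is the lone black circle left of 0. The point of IGFL3 rests on 3 reads in siCTRL.

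Of the classical ligands, IGF1 was assigned more reads after knockdown. IGF1 had 651, 603 and 656 normalized counts in siDNp63, against 236, 229 and 228 in siCTRL. The groups lay apart, with a log2 fold change of 1.46 (SE 0.08, edgeR adjusted p = 9.97e-06), or 2.76-fold, at a level of 5.41 ± 0.312 TPM in siDNp63 and 1.79 ± 0.459 TPM in siCTRL (SD, n = 3 each). HELLPAR, a long non-coding RNA on the opposite strand that is not in the expression table, covers 6693 of the 8115 exonic bases of IGF1. Quantification with default options does not use strand, so reads of the 2 genes cannot be told apart. IGF2, the fetal growth factor, stood low at 20, 37 and 34 estimated counts in siDNp63 and 30, 15 and 25 in siCTRL and did not pass (log2 fold change 0.37, edgeR adjusted p = 0.368). INS, the insulin gene, was at 0 in all 6 libraries.

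Among the binding proteins, IGFBP7 and IGFBP3 rose and none of the tested genes fell past the threshold in the edgeR fit, although DESeq2 called IGFBP5 lower. IGFBP3, the main carrier of IGFs in blood, also binds cell-surface and nuclear proteins. It lies on chromosome 7 (chr7:45912245-45921874, minus strand) beside IGFBP1. Its promoter, chr7:45921223-45921522 on the minus strand in GRCh38.p14, is printed from RefSeq as the CpG-rich counterpart of the IGFL promoters above, 5′ to 3′ with CpGs in capitals.
IGFBP3: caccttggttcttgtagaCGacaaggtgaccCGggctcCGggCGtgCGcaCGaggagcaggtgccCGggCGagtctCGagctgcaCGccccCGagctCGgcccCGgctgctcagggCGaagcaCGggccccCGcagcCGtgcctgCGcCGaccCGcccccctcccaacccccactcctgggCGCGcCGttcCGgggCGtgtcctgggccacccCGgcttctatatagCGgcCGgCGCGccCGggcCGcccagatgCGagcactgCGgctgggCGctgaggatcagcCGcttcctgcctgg
It held 36 CpGs, above the upper quartile of 28 over all promoters. Neither the p53-family half-site nor the AP-1 motif was found in it. Promoters were matched for 9 of the 10 genes (11 windows, none for IGFBP7), and the half-site occurred in 1 of these windows, 32 bases before the third annotated start of IGFBP2. The CpG count was 55 in IGF1R, 41 in IGF2R, 36 in INSR, 30 in IGFBP4, 12 in IGFBP6 and 6 in IGFLR1. The windows of IGFBP2 held 8, 28 and 6, in the order of their starts.

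IGFBP3 had 5813, 5770.4 and 5253 normalized counts in siDNp63, against 4210.5, 4274 and 4346 in siCTRL. All siDNp63 libraries stood above all siCTRL libraries, and the spread was wider in siDNp63. In edgeR the log2 fold change was 0.39 (SE 0.05, 95% interval 0.28 to 0.50, edgeR adjusted p = 5.68e-04), a 1.31-fold difference. On the TPM scale it was 89.9 ± 3.81 in siDNp63 and 72.2 ± 0.448 in siCTRL (SD, n = 3 each). The counts of IGFBP3 were whole in all 6 libraries, and the call held in all 17 alternatives.

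IGFBP7, a secreted protein of basement membranes and vessels that binds IGFs only weakly, lies on chromosome 4 (chr4:57030773-57110385, minus strand). It had 639.9, 591 and 565 normalized counts in siDNp63, against 271, 275 and 265 in siCTRL. The groups lay far apart. IGFBP7 had a log2 fold change of 1.15 (SE 0.08, 95% interval 0.96 to 1.34, edgeR adjusted p = 3.67e-05), or 2.21-fold, and stayed between 1.01 and 1.19 in the alternatives. Exons of POLR2B on the opposite strand cover 260 of its 1930 exonic bases, and POLR2B had 5768 to 8335 estimated counts. The quantification does not use strand, so reads of that stretch could be split between the genes. Unlike those of IGFL1 and IGFBP3, the counts of IGFBP7 were whole in 0 of 6 libraries. Which transcripts shared its reads was not tested. IGFBP7 is also a product of endothelial cells, and 3 of 5 endothelial markers were tested and all 3 were higher (PECAM1, log2 fold change 2.39; KDR, 2.36; VWF, 0.88). The summed level of the 5 was 11.2 to 13.7 TPM in siDNp63 and 2.56 to 3.06 TPM in siCTRL. CDH5, the cadherin that defines endothelium, was near 0, at 0, 2.02 and 2 estimated counts in siDNp63 and 4, 6 and 1 in siCTRL. TEK, an endothelial receptor also too low to test, had 19, 13 and 7 estimated counts in siDNp63 and 6, 6 and 7 in siCTRL. The part of these markers in the IGFBP7 result was not tested.

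IGFBP2, which carries an integrin-binding RGD sequence, and IGFBP5, the binding protein rich in bone and muscle, are neighbours on chromosome 2 (IGFBP2 at chr2:216632828-216664436, plus strand, and IGFBP5 at chr2:216672105-216695549, minus strand). IGFBP2 had 534, 776 and 823 normalized counts in siDNp63, against 894, 833 and 874 in siCTRL. The groups did not overlap, but siDNp63 replicate 1 lay far below its 2 fellows. The log2 fold change was -0.28 (SE 0.15, 95% interval -0.62 to 0.06, edgeR adjusted p = 0.183) and -0.12 without that library, so no difference passed the test. IGFBP5 had 12804, 13542 and 13415 normalized counts in siDNp63, against 14172, 14855 and 14069 in siCTRL, without overlap and just outside the threshold (log2 fold change -0.12, edgeR adjusted p = 0.0590). It was called lower in 5 of 17 alternatives, among them DESeq2, the tool of the study (log2 fold change -0.11, DESeq2 adjusted p = 0.0347).

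IGFBP4, which restrains IGF action until the protease PAPPA cuts it, lies on chromosome 17 (chr17:40443450-40457725, plus strand). It had 426, 476 and 461 normalized counts in siDNp63, against 439, 423 and 391 in siCTRL. The groups overlapped and the log2 fold change of 0.12 did not pass (SE 0.08, 95% interval -0.07 to 0.32, edgeR adjusted p = 0.315). IGFBP4 was the lone promoter of the 9 matched genes with a TATAAA box (either strand), 29 bases before the start, against 11.5% of all promoters. IGFBP6, which prefers IGF2 (chr12:53097436-53102345, plus strand), had only 3, 5 and 3 estimated counts in siDNp63 and 1, 9 and 8 in siCTRL. It did not pass the filter on low counts, and the groups overlapped. IGFBP1, the binding protein of liver, had 0, 1 and 0 counts in siDNp63 and 0 in every siCTRL library.

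The binding proteins can also be given as shares of their summed transcripts. The TPM values of IGFBP1 to IGFBP7 summed to 232 ± 5.22 in siDNp63 and 223 ± 2.68 in siCTRL (SD, n = 3 each). IGFBP3 made up 38.8 ± 2.42% of the sum in siDNp63 and 32.4 ± 0.589% in siCTRL, and IGFBP7 10.2 ± 0.856% in siDNp63 and 5.03 ± 0.0946% in siCTRL. The share of IGFBP5 was 31.4 ± 0.493% in siDNp63 and 37.3 ± 1.17% in siCTRL, and that of IGFBP2 was 16.3 ± 2.80% in siDNp63 and 21.8 ± 1.56% in siCTRL. IGFBP5 was thus the largest entry in siCTRL and IGFBP3 the largest in siDNp63. For each of the 4 the shares of the groups did not overlap, as normalized counts did not for 49.4% of all genes tested. The shares are parts of 1 sum, so larger shares of IGFBP3 and IGFBP7 lower the others. IGFBP2 and IGFBP5 did not pass the test themselves. The IGFBP2 share was 13.1% in siDNp63 replicate 1, against 17.2% and 18.5% in the other siDNp63 libraries. These shares are descriptions without a test.

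**Figure D3:**
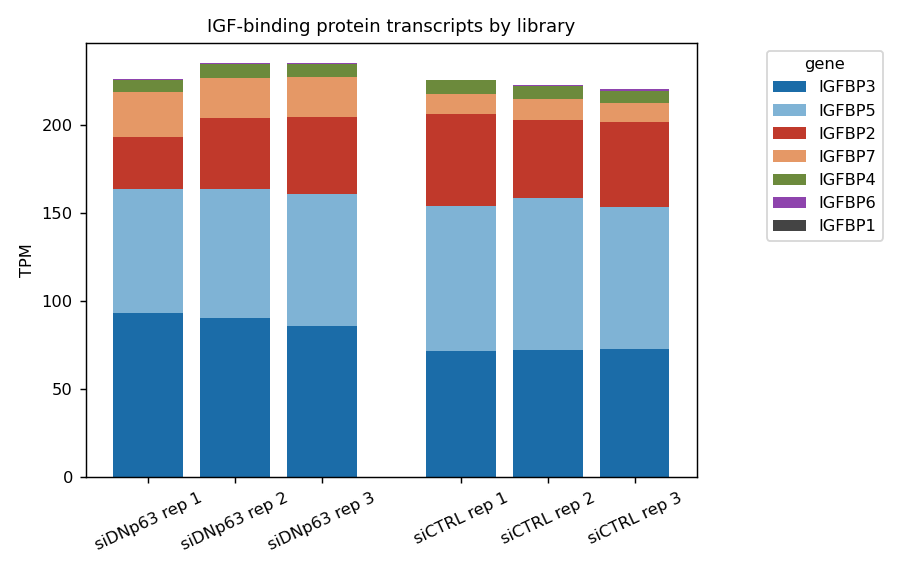
Stacked TPM (y axis, from 0) of IGFBP1 to IGFBP7 in each library, siDNp63 left of siCTRL. The stacks reach 226 to 235 TPM in siDNp63 and 220.3 to 226 TPM in siCTRL, with a thicker IGFBP7 band in siDNp63 (22.7 to 25.2 TPM) than in siCTRL (10.9 to 11.4 TPM).

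The 3 listed receptors for IGFs and insulin all passed the test with small differences, with INSR and IGF2R higher and IGF1R lower. INSR, the insulin receptor, lies on chromosome 19 (chr19:7112255-7294414, minus strand). It had 4687, 4652 and 4689 normalized counts in siDNp63, against 3784, 3579 and 3639 in siCTRL. The groups lay apart, with siDNp63 the tighter of them. INSR was higher by 0.35 on the log2 scale (SE 0.04, 95% interval 0.27 to 0.44, edgeR adjusted p = 2.61e-04), or 1.27-fold. The call was lost in 1 of 17 alternatives, limma on log2(TPM + 1) (adjusted p = 0.0514).

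IGF1R, the main receptor of IGF1 and IGF2, lies on chromosome 15 (chr15:98648539-98964530, plus strand). It had 7382, 7221 and 7093 normalized counts in siDNp63, against 9125, 8609 and 8701 in siCTRL. All siDNp63 libraries stood below all siCTRL libraries. The log2 fold change was -0.29 (SE 0.04, 95% interval -0.38 to -0.19, edgeR adjusted p = 1.02e-03), or 1.22-fold lower. The call was lost once transcript lengths entered the fit. The estimated length relative to its mean was 0.894, 0.957 and 0.998 in siDNp63 and 1.15, 1.02 and 0.999 in siCTRL. With these lengths as offsets the log2 fold change was -0.15 (adjusted p = 0.132), and on log2(TPM + 1) it was -0.21 (limma adjusted p = 0.0602). The deposited values are per gene, so shares of transcripts of unlike length were not seen directly.

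IGF2R, also the cation-independent mannose 6-phosphate receptor, lies on chromosome 6 (chr6:159969082-160113507, plus strand). It had 26479, 25251 and 25030.3 normalized counts in siDNp63, against 22709, 22834 and 23131 in siCTRL. The groups did not overlap, although the difference was the smallest of those called among the 10 genes. The log2 fold change was 0.16 (SE 0.04, 95% interval 0.08 to 0.24, edgeR adjusted p = 9.87e-03), or 1.12-fold. Scaling by library size alone, under which the median over all genes was -0.11 on the log2 scale, gave 0.07 (adjusted p = 0.0818), and log2(TPM + 1) gave 0.13 (limma adjusted p = 0.0569). The TPM ratio of INSR to IGF1R was 0.325, 0.373 and 0.424 in siDNp63, against 0.296, 0.240 and 0.251 in siCTRL. That of IGF2R to IGF1R was 1.65, 1.77 and 1.83 in siDNp63, against 1.46, 1.35 and 1.35 in siCTRL. Both ratios were higher in each siDNp63 library than in any siCTRL library, and both share the length estimate of IGF1R described above.

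**Figure D4:**
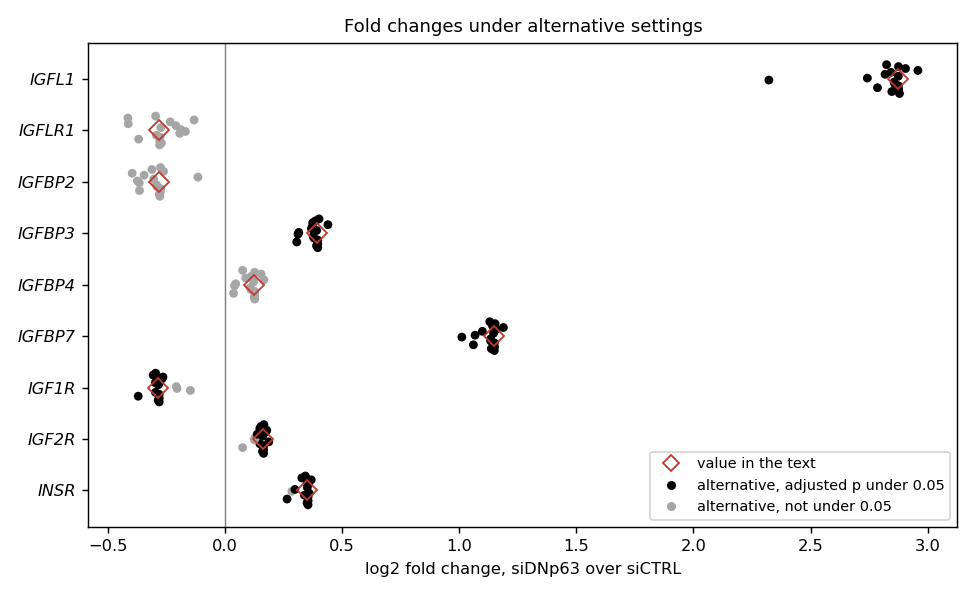
log2 fold changes, siDNp63 over siCTRL (x axis), of the 9 tested genes under 16 alternative settings (dots, black where the adjusted p was under 0.05, grey otherwise) and as given in the text (open red diamonds). No dot changes side, grey dots among the called genes are seen for IGF1R, IGF2R and INSR, and the dot of IGFL1 at 2.32 lies apart from the others.

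Around these 10 genes, 74 other genes of IGF and insulin signalling were listed, of which 65 were tested. The edgeR adjusted p was under 0.05 for 32 of them, or 49.2% beside 33.6% of all genes tested, with 20 higher and 12 lower and a median log2 fold change of 0.05. The lists were drawn up with earlier results of these data known. The 32 include IGFL3 and PAPPA2, which passed the filter on low counts only through siDNp63. The 49.2% is therefore a description and not a test of the lists. The split leaned on scaling: with library size alone it was 16 higher and 22 lower, and over all genes 36.1% of calls were then higher, beside 54.7% with TMM. On log2(TPM + 1) it was 10 higher and 14 lower, and 41.5% of all calls were higher. The counts by list that follow are for TMM scaling, with those for library size alone beside them where they differ. They have to be read against the 18.4% higher and 15.2% lower of all genes tested with TMM scaling.

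Genes that act on the binding proteins outside the cell were partly changed. Of 6 IGFBP proteases and their inhibitors 4 were tested, with 2 higher and 1 lower, beside 33.6% of all genes tested that were called. STC2, a secreted inhibitor of the PAPPA proteases, had 228, 271 and 237 normalized counts in siDNp63, against 118, 165 and 139.7 in siCTRL (log2 fold change 0.80, edgeR adjusted p = 4.38e-03). Its call was lost with transcript lengths (0.74, edgeR adjusted p = 0.125), on log2(TPM + 1) (0.40, limma adjusted p = 0.191) and on log2(TPM + 0.1) (0.60, limma adjusted p = 0.194). PAPPA2, a protease that cuts IGFBP3 and IGFBP5, had 23.0, 17.1 and 15.3 normalized counts in siDNp63, against 6.94, 9.36 and 6.76 in siCTRL (log2 fold change 1.24, edgeR adjusted p = 0.0227). The groups lay apart for both, but PAPPA2 rests on few reads, passed the filter on low counts only through siDNp63, lost its call when any of 4 libraries was left out (siDNp63 replicate 1 or 2, siCTRL replicate 1 or 3, adjusted p up to 0.0821) and lay at -0.048 on log2(TPM + 1). Of 7 other cell-surface partners 1 was higher and 1 lower (0 and 3 with library size alone), or 28.6% called with TMM scaling, near the share over all genes. The lower one was ITGB4, the hemidesmosome integrin chain, with 5074, 8166 and 8468 normalized counts in siDNp63, against 13309, 12732 and 12684 in siCTRL (log2 fold change -0.83, edgeR adjusted p = 6.84e-03). Its siDNp63 replicate 1 lay far below the others. Both IGF2 mRNA-binding proteins tested, IGF2BP2 and IGF2BP3, named after their values were seen, were higher, with log2 fold changes of 0.42 and 0.28.

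Inside the cell, 3 substrates and adaptors were higher and 3 lower of 10 tested (3 and 5 with library size alone). With TMM scaling this is 60.0% called, beside 33.6% of all genes tested. GRB14, an adaptor that inhibits the insulin receptor, had 98.5, 70.2 and 81.1 normalized counts in siDNp63, against 51.2, 33.3 and 47.3 in siCTRL (log2 fold change 0.91, edgeR adjusted p = 0.0162, and 0.44 with an adjusted p of 0.392 with transcript lengths). IRS1 and IRS2, the docking proteins of IGF1R and INSR, were named after their values were seen and moved apart. IRS1 had 1174, 1121 and 1101 normalized counts in siDNp63, against 1511, 1482 and 1451 in siCTRL (log2 fold change -0.39, edgeR adjusted p = 6.53e-04). IRS2 had 543, 475 and 474 in siDNp63, against 360.1, 359 and 371 in siCTRL (log2 fold change 0.45, edgeR adjusted p = 4.71e-03). The groups lay apart for both, and the IRS2 call was lost on both TPM scales.

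Of 26 genes of the PI3K-AKT arm, 7 were higher and 6 lower (4 and 7 with library size alone). FOXO3, a transcription factor held out of the nucleus by AKT, had 7422, 7185 and 7236 normalized counts in siDNp63, against 5133, 4829.6 and 5081 in siCTRL (log2 fold change 0.54, edgeR adjusted p = 4.25e-05). It was higher in every siDNp63 library than in any siCTRL library. DDIT4, a stress-induced brake on mTORC1, had 628, 707 and 597 in siDNp63, against 925, 891 and 969 in siCTRL (log2 fold change -0.53, edgeR adjusted p = 1.65e-03). RPS6KB2, an S6 kinase, had 701, 942 and 972 in siDNp63, against 1217, 1316 and 1230.2 in siCTRL (log2 fold change -0.52, edgeR adjusted p = 0.0106, and -0.49 with an adjusted p of 0.0562 without siCTRL replicate 2). Without siDNp63 replicate 1, its lowest library, the log2 fold change was -0.39 (edgeR adjusted p = 0.00117). DDIT4 and RPS6KB2 were both lower in every siDNp63 library. Of 10 genes of the MAPK arm, 3 were higher and 1 lower (3 and 4 with library size alone). With TMM scaling this is 40.0% called, near the 33.6% of all genes tested.

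**Figure D5:**
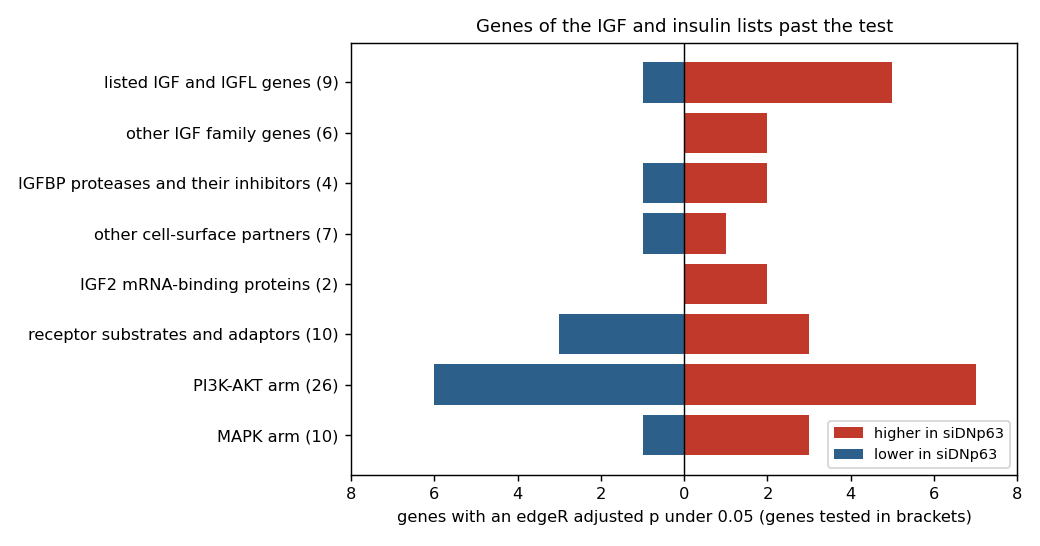
Number of genes with an edgeR adjusted p under 0.05 in each list (x axis, lower in siDNp63 to the left in blue, higher to the right in red), with the genes tested in brackets. With TMM scaling the PI3K-AKT arm has 7 higher and 6 lower of 26 (4 and 7 with library size alone), and the listed IGF and IGFL genes 5 higher and 1 lower of 9. Of all genes tested, 18.4% were higher and 15.2% lower with TMM scaling.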

How the data were processed

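RNA of 6 SCC90 samples was sequenced as poly(A) RNA with a strand-marking kit. The deposited table gives, per gene, expected counts (estimated counts) and TPM, which the authors made with kallisto 0.46.2 on hg38 after bcl2fastq 2.17.1.14, and the options named in their methods do not use strand. Expected counts were rounded and tested with edgeR 4.0.16 (R 4.3.3, quasi-likelihood test, TMM scaling, minimum count 10, Benjamini-Hochberg adjustment over all 17257 genes tested). Group was the sole term, with 3 libraries a group. DESeq2 1.42.0 and limma 3.58.1 (also on log2 of TPM plus 1 or 0.1) served as alternatives, beside other scalings, filters, transcript lengths, a replicate block and leaving out each library. The fit was tested on simulated data. The genes were chosen by name, and the genes and lists with earlier results of these data known. Named are all 10 genes, 8 relatives and, per list, up to 4 genes past the test with an absolute log2 fold change over 0.5, with others marked; 1 gene that the rule names is not reported here. Counting intervals cover counting error only. GENCODE v44 gave positions. The methods of the study name DESeq2.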

Additional observations from a re-analysis of the deposited data

How the results depend on the processing

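Over 17 alternatives, 145 of 153 values of the 9 tested genes kept direction and side of the threshold, 8 lost their call and 0 changed sign. Besides the losses given above, IGF1R (-0.21, limma adjusted p = 0.0615) and IGF2R (0.13, limma adjusted p = 0.0636) lost their calls on log2(TPM + 0.1), and IGF2R at an adjusted p under 0.005. On log2(TPM + 1), 3 of the 9 genes passed. At an adjusted p under 0.005, 2904 genes of all and 18 of the 65 signalling genes passed. PAPPA2 turned to -0.048 on log2(TPM + 1) and -0.15 on log2(TPM + 0.1). Leaving out 1 library at a time gave 6 of the 9 genes each time, 26 to 36 of the signalling genes and 4373 to 6840 of all genes. Whether libraries with the same replicate number were handled together is not stated. Their deviations from the group means correlated at -0.01, 0.02 and 0.03, which shows no pairing but cannot settle the matter with 3 libraries a group. With a replicate block 6 of the 9 genes, 33 signalling genes and 4952 of all genes passed. IGFBP6, IGFBP1 and IGFL2 had too few counts to be tested, and IGFL3 and PAPPA2 gave no value with at least 10 counts in every library.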
